A study of Mus musculus with 2 samples.

Results

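Ephrins and their Eph receptors were examined in the brain of mouse embryos at E10.5 (embryonic day counted from the plug), as every probe set annotated to 1 of 10 listed genes: the ligands Efna1, Efna2, Efna5, Efnb1 and Efnb2, and the receptors Epha3, Epha4, Epha7, Ephb2 and Ephb3. The platform annotation named probe sets for 9 of these genes, of 18201 genes named in all, and they had 27 probe sets. Ephb2 had no probe set named here and was not analysed here. The study set 1 array of a sample labelled KO against 1 array of a sample labelled WT, both C57BL/6 brain of the same stage. The labels do not give the gene that was knocked out, how it was inactivated, the sex of the embryos or how many embryos each sample held, so the targeted gene could not be used to check the labels. With 1 array per group there is no replicate error and no test, and every difference below is one between these arrays.

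Eph receptors are the largest family of receptor tyrosine kinases, and ephrins are their membrane-bound ligands. Ephrin-A ligands are held to the membrane by a lipid anchor and mainly bind EphA receptors, whereas ephrin-B ligands cross the membrane and mainly bind EphB receptors, with Epha4 able to bind both classes. Contact between cells starts forward signalling in the cell bearing the receptor and reverse signalling in the cell bearing the ephrin, which sorts cells at compartment boundaries of the neural tube and later guides axons. In the tectum, the dorsal midbrain that receives retinal axons, Efna2 and Efna5 form gradients that engrailed transcription factors are known to raise.

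Among the listed genes, Efnb2 read higher in the KO brain on its 2 brightest probe sets and level on its dim ones. Epha4 read lower on its brightest probe set, and the probe sets of the remaining genes that passed a filter on level differed by -0.19 to 0.13. Differences are KO minus WT on the scale log2(signal + 16), where signal is the deposited linear intensity, and folds are counted on this scale. A probe set passed the level filter when its signal reached 45.0 in at least 1 array, which is the median over named genes of the signal in the higher array. Of the 27 probe sets, 15 of 8 genes passed this filter and 0 of these 15 were 2-fold apart, where 0.32% of all 14385 passing probe sets were. At least 1.5-fold apart was 1 of the 15, an Epha4 probe set, against a background of 1.4%. The median over the 15 was -0.075 and that over all passing probe sets was -0.0034. Over the 8 genes that passed, each taken by its brightest probe set, the median was -0.021, beside -0.00097 over 9101 passing genes, and it turned to 0.040 with the mean of each gene's probe sets. Of those genes, 0 of the 8 were 2-fold apart (background 0.308%) and 1 of the 8 was at least 1.5-fold apart (background 1.31%).

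**Figure D1:**
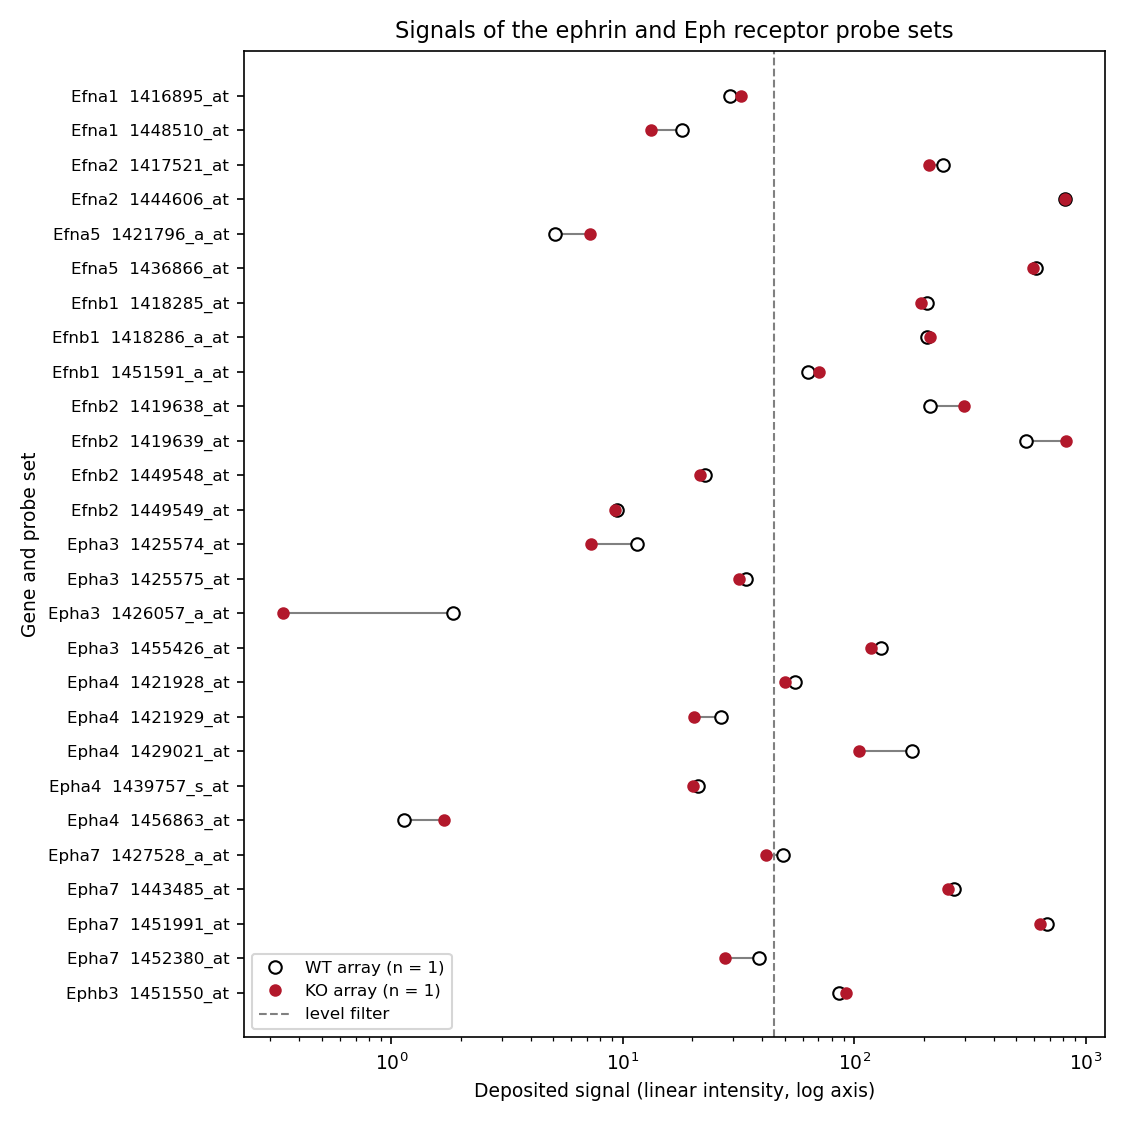
Deposited signal (linear intensity on a log axis) of each of the 27 probe sets in the KO array (filled) and the WT array (open), 1 array each, with the level filter as a dashed line. The pairs of Efnb2 and Epha4 probe sets 1419638_at, 1419639_at and 1429021_at are the widest apart among those above the filter, and the wide pair of Epha3 at the far left has signals of 0.34 and 1.84.

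The arrays differ in other ways that touch these values. Xist, the RNA of the inactive X chromosome, read 2023 in KO and 5.19 in WT, and 3 measured Y-linked genes, Eif2s3y, Kdm5d and Uty, read 0.27 to 2.21 in KO and 90.9 to 254 in WT, so genotype and this difference cannot be told apart. The neural tube markers fixed for a check of the tissue label were all measured, and 8 of 8 passed the filter. Of these 8, 7 were lower in KO, with a median of -0.20 and summed signals of 7505 and 8157. All 7 macrophage markers were lower in KO, with summed signals of 134.5 and 431.5, and Mrc1, at 2.76 in KO against 57.5 in WT (-1.97), was the farthest apart. Of the 3 that passed the filter, Mrc1 and C1qb were above it only in WT, which fixes their direction. Csf1r, above it in both arrays, read 88.1 in KO and 187 in WT (-0.96). Of 6 surface ectoderm markers 4 were higher in KO (median 0.064), and so were 3 of the 3 that passed the filter (median 0.31). These 3, Krt8, Krt18 and Epcam, were above the filter only in KO, which fixes their direction. Of 6 red cell markers 3 were higher (median 0.082), but only 1 of the 4 that passed (median -0.17), with summed signals over the 6 of 13658 and 15324. In brain tissue, fewer cells of a type and less RNA per cell cannot be told apart.

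Promoter windows are shown for the genes on which the differences turn, Efnb2 and Epha4, and for the tectal ligands Efna2 and Efna5. Each is the 250 bases before an annotated start, from RefSeq on GRCm38.p6, printed 5′ to 3′ on the strand of the gene, and 10 of 10 listed genes matched by symbol, with 12 windows. The windows lie at chr8:8661243-8661492 on the minus strand (Efnb2), chr1:77515089-77515338 on the minus strand (Epha4), chr10:80179232-80179481 on the plus strand (Efna2) and chr17:62881318-62881567 on the minus strand (Efna5). Capitals mark CCAAT and GGGCGG on either strand, and TAATTA, the core letters bound by engrailed and other homeodomain proteins, and CCGGAA, those of ETS factors, were searched too.
Efnb2: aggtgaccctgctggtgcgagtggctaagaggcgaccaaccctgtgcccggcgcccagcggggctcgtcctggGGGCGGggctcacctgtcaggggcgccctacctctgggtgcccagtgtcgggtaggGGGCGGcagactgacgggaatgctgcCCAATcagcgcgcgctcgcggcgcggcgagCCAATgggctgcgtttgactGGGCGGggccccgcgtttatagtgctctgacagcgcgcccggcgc
Epha4: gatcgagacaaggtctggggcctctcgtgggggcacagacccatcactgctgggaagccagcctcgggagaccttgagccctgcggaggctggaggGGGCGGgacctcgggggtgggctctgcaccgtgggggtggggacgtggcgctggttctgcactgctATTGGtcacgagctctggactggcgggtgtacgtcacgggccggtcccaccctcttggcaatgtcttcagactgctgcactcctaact
Efna2: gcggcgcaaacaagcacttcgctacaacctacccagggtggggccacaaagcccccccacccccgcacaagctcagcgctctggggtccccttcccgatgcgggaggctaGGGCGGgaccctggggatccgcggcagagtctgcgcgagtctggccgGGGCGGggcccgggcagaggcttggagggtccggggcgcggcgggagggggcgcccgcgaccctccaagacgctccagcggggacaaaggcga
Efna5: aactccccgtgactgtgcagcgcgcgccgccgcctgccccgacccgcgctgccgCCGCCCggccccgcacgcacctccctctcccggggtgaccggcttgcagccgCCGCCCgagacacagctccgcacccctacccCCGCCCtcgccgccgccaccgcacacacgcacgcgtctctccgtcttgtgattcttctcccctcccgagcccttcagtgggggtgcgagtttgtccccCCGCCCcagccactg

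The Efnb2 window held 2 CCAAT and 3 GGGCGG matches and was 72.0% G or C, beside a median of 52.4% over all 32851 windows of this length. The Epha4 window held 1 of each and was 66.0% G or C. The Efna2 and Efna5 windows held 2 and 4 GGGCGG matches and no CCAAT. Over all windows, CCAAT was found in 33.8% and GGGCGG in 32.7%. TAATTA, found in 4.84% of all windows, and CCGGAA, found in 12.0%, were in none of these 4. Among the listed genes, TAATTA occurred in 1 of 2 Efna1 windows and CCGGAA in that of Ephb2. A match is a string of letters and shows no binding, and its absence says only that these letters are not in this window.

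Efnb2, a transmembrane ligand of EphB receptors and of Epha4 that also marks arteries, had 4 probe sets. Probe set 1419639_at read 819 in KO and 553 in WT, a difference of 0.55. Probe set 1419638_at read 298 in KO and 212 in WT, a difference of 0.46. Both bright probe sets were thus higher in KO by nearly the same amount, 0.092 apart. The other two were dim and level: 1449548_at read 21.6 in KO and 22.6 in WT (-0.039), and 1449549_at read 9.27 and 9.47 (-0.012). Neither dim probe set passed the filter. Among 3484 genes with at least 2 passing probe sets, 17 (0.488%) had all of them at least 1.3-fold higher in KO, and Efnb2 was among the 17. This comparison was chosen after its values were seen and is a description.

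Markers of other cells that can carry Efnb2 gave the following values. Of 9 endothelial markers, 8 were lower in KO, with a median of -0.045 and summed signals of 690 and 737. All 6 that passed the filter were lower (median -0.061), Tek the farthest apart at 53.7 against 65.7 (-0.23). The defining marker Cdh5 read 68.0 against 70.1 (-0.036), and Pecam1, below the filter, 24.9 against 30.0 (-0.17). Of 9 head mesenchyme markers, 7 read above WT (median 0.18), with summed signals of 2679 and 2652. Neural crest markers were 3 higher and 2 lower of 5 measured, and the 2 that passed the filter were both higher, Ets1 at 238 against 209 (0.18) and Tfap2a at 73.5 against 62.6 (0.19). The defining crest markers Sox10 (1.75 against 5.47) and Foxd3 (1.16 against 1.91) were near 0 in both arrays. The part of endothelium, mesenchyme and crest in the Efnb2 difference was not tested.

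Efnb1, the other listed ephrin-B gene and the only listed one on the X chromosome, had 3 probe sets, and all passed the filter. Probe set 1418285_at read 194 in KO and 206 in WT, a difference of -0.075. Probe set 1418286_a_at read 212 and 206, a difference of 0.037, and 1451591_a_at read 70.6 and 63.0, a difference of 0.13. The probe sets did not share a direction, and their differences spanned 0.21, compared with an SD of 0.16 between passing probe sets of a gene over all 3484 such genes. The Xist and Y-linked signals above separate the arrays, and their part in the Efnb1 values was not tested.

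The ephrin-A ligands of the tectum were close to level. Efna2 read 815 in KO and 813 in WT on probe set 1444606_at, a difference of 0.0025 that turned to the other sign after quantile normalisation. Its second probe set, 1417521_at, read 211 in KO and 242 in WT, a difference of -0.19. Efna5 read 595 in KO and 613 in WT on 1436866_at (-0.044), and its dim probe set 1421796_a_at read 7.22 and 5.08 (0.14). Both genes therefore had a bright probe set within 0.05 of the WT array. The engrailed genes were higher in the same KO array, En2 at 1291 against 761 (0.75) and En1 at 61.4 against 20.1 (1.10), the latter above the filter only in KO. Efna1, a ligand first found in endothelium, was below the filter on both probe sets, with 32.3 in KO and 29.2 in WT on 1416895_at (0.096) and 13.3 and 18.1 on 1448510_at (-0.22).

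**Figure D2:**
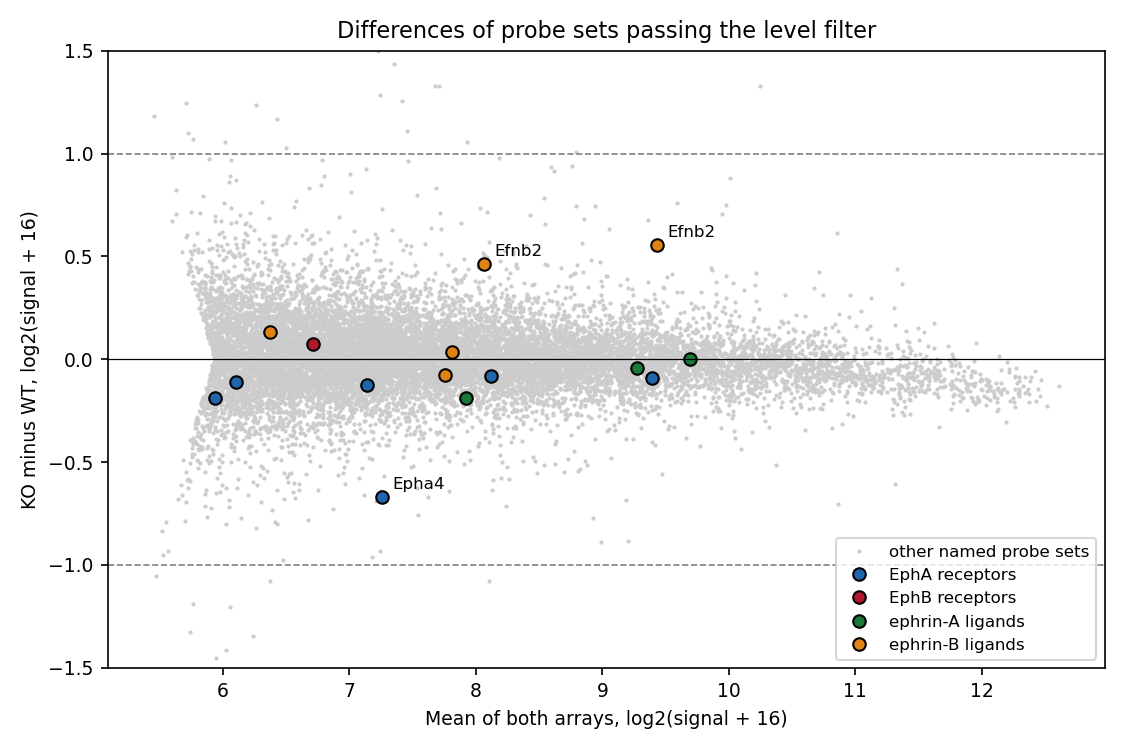
Difference KO minus WT against the mean of both arrays, both as log2(signal + 16), for the probe sets passing the level filter, with listed genes coloured by class and dashed lines at 2-fold; 19 other probe sets beyond 1.5 are not drawn. The 2 Efnb2 probe sets (0.46 and 0.55) and 1 Epha4 probe set (-0.67) lie at the edge of the cloud, and the other 12 lie within it.

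The spread of differences narrows with level, so each probe set was also set beside those of similar brightness. In the brightest of 4 equal level groups of passing probe sets, the middle 95% of differences ran from -0.25 to 0.26, and Efnb2 probe set 1419639_at, at 0.55, lay above it. In the next group it ran from -0.29 to 0.32, below the 0.46 of 1419638_at. In the group that holds Epha4 probe set 1429021_at it ran from -0.33 to 0.40, above its -0.67. These were 3 of the 15 passing probe sets of the listed genes outside the band, where 5.01% of all passing probe sets are outside by construction. Of the 3, 2 are probe sets of Efnb2 and are not independent.

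The 5 probe sets of Epha4, a receptor for ligands of both classes that acts at hindbrain segment boundaries and in motor axon guidance, did not move by a common amount. Probe set 1429021_at read 105 in KO and 177 in WT, a difference of -0.67. Probe set 1421928_at, the other one above the filter, read 50.2 and 55.4, a difference of -0.11. Of the 3 dim ones, 1421929_at read 20.3 and 26.6 (-0.23), 1439757_s_at 20.2 and 21.2 (-0.039), and 1456863_at 1.68 and 1.13 (0.046). Both probe sets above the filter were lower in KO, but they were 0.56 apart, and 3.47% of genes with at least 2 passing probe sets had a range as wide. Which transcripts of Epha4 each probe set reads is not given in the sources used here.

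Epha7, a receptor of the developing neural tube that ephrin-A ligands bind, was lower in KO on each of its 4 probe sets, with differences from -0.33 to -0.083. Probe set 1451991_at read 635 in KO and 678 in WT (-0.092), and 1443485_at read 254 and 270 (-0.083). Probe set 1427528_a_at read 41.6 and 49.5 (-0.19), above the filter only in WT, and 1452380_at read 27.6 and 38.6 (-0.33), below it. The 3 passing ones thus shared a direction, as did all passing probe sets of 25.5% of the 3484 genes in the lower direction. That of 1427528_a_at was fixed by its passing only in WT.

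Epha3, a receptor with high affinity for Efna5, passed the filter on 1 of 4 probe sets. Probe set 1455426_at read 119 in KO and 131 in WT, a difference of -0.13. The dim probe sets read 31.9 and 34.0 (-0.064) on 1425575_at, 7.29 and 11.5 (-0.24) on 1425574_at, and 0.34 and 1.84 (-0.13) on 1426057_a_at. All 4 were lower in KO, the last at signals next to 0. Ephb3, a receptor of ephrin-B ligands, had a single probe set, 1451550_at, at 91.8 in KO and 86.2 in WT, a difference of 0.076.

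By class, EphA receptors were lower in KO on 12 of 13 probe sets of the 3 listed genes, where 17671 of all 34957 named probe sets were lower. EphA receptors were also lower on 6 of the 6 that passed the filter, where 51.2% of all passing probe sets were lower. Their median over the 6 was -0.12, and all 6 kept this direction after quantile normalisation and after a loess fit on level. Of these 6, 5 were above the filter in both arrays. The other, Epha7 probe set 1427528_a_at, passed only in WT, which fixes its direction. Over all their probe sets the ligands were divided, with 4 higher of 7 for ephrin-B (median 0.037) and 3 higher of 6 for ephrin-A (median -0.021). Of all 34957 named probe sets, 17286 were higher. The ephrin-B ligands read above WT on 4 of 5 passing probe sets (median 0.13), and the ephrin-A ligands were lower on 2 of 3, or 3 of 3 after quantile normalisation, with a median of -0.044. Probe sets of 1 gene share their transcript and are not independent. The EphA counts, here and over all EphA genes, were added after the values were seen and are a description. Among the neural tube markers above 7 of 8 were lower (median -0.20), and their part in the EphA values was not tested.

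The remaining genes of the family were taken as a list of 12, all measured, of which 7 passed the filter. Epha5, another EphA receptor of the developing brain, was lower on all 4 of its probe sets: 130 in KO and 170 in WT on 1435286_at (-0.35), 76.6 and 100.4 on 1437920_at (-0.33), 47.4 and 56.2 on 1444690_at (-0.19), and 12.6 and 12.7 on 1420557_at (-0.0055). Epha2 (49.9 against 53.2, -0.070) and Epha8 (39.0 against 43.3, -0.11, below the filter) also read lower. Epha10, which has no active kinase, was higher at 45.8 against 31.6 (0.38), above the filter only in KO. Epha1 (8.97 against 3.40, 0.36) and Epha6 (2.84 against 0.73, 0.17) were dim. Of the 9 EphA genes, 6 had a passing probe set, and 10 of these 11 probe sets were lower in KO, Epha10 being the exception, beside 51.2% of all passing probe sets. Epha10 and Epha7 probe set 1427528_a_at each passed in only 1 array, which fixes their direction. Over all 24 EphA probe sets, 18 were lower, where 17671 of all 34957 named probe sets were. The higher ones were the 3 of Epha1, the 1 of Epha6, that of Epha10 and Epha4 probe set 1456863_at.

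The other ligands and EphB receptors of the list gave these values. Efna4 read 98.2 in KO and 76.8 in WT (0.30), Efnb3, a ligand of the neural tube midline, 330 and 298 (0.14), and Efna3 17.6 and 15.1 (0.11). Ephb1 read 89.8 and 75.03 (0.22), Ephb6, which lacks kinase activity, 28.3 and 22.7 (0.19), and Ephb4, the venous partner of Efnb2, 60.9 and 66.0 (-0.094). Efna3 and Ephb6 were below the filter. Over the whole family, 7 of 10 passing ephrin probe sets (6 of 10 after quantile normalisation) and 2 of 3 passing EphB probe sets were higher in KO, where 7027 of all 14385 passing probe sets were. The list of 12 had 8 higher and 4 lower genes and a median of 0.15, beside 9157 higher and a median of 0.0011 over all 18201 genes. The 7 that passed were 4 higher, with Epha10 passing only in KO, and 3 lower, with a median of 0.14. Of all 9101 passing genes, 4519 were higher. None of the 7 was 1.5-fold apart.

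**Figure D3:**
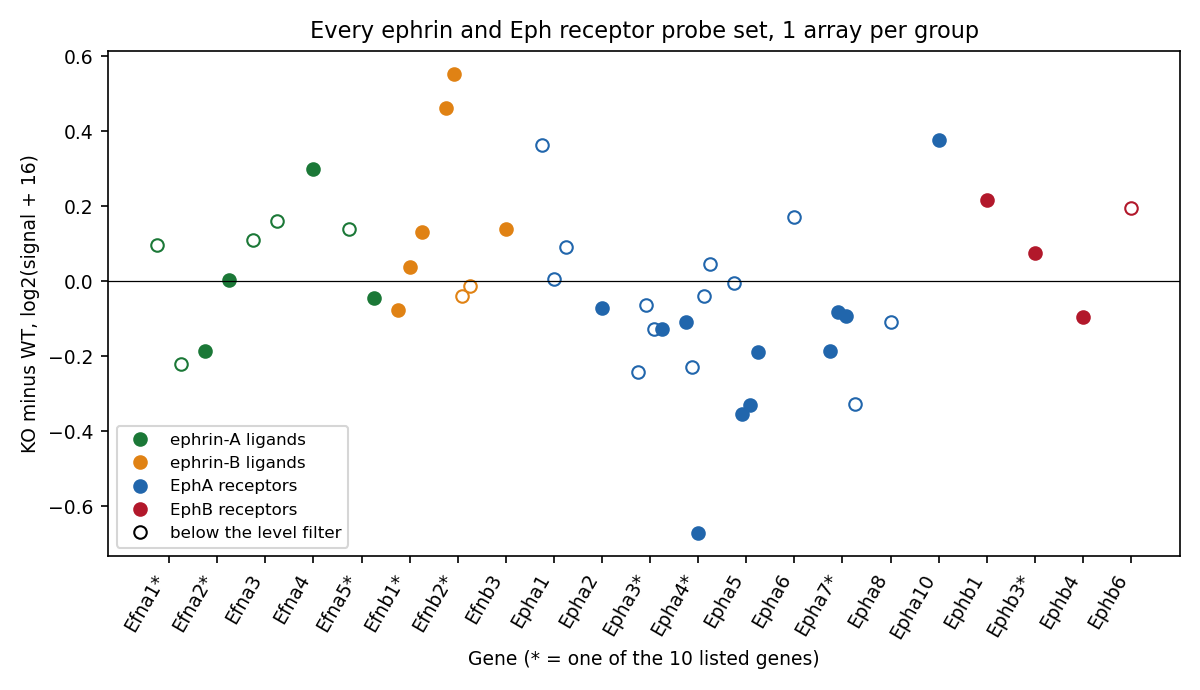
Difference KO minus WT on the log2(signal + 16) scale for every probe set of the 21 measured ephrin and Eph receptor genes, filled where the probe set passed the level filter and open where it did not. Efnb2 has the highest points (0.55 and 0.46), Epha4 the lowest (-0.67), and the filled EphA points lie below 0 except that of Epha10 (0.38).

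Genes that act with ephrins and Ephs were split between higher and lower. Of 27 genes listed for forward signalling, which pass the receptor signal on to the cytoskeleton, 25 were measured and 24 passed the filter. Of the 24, 12 were higher and 12 lower, with a median of -0.00014, and 50.3% of all passing genes were lower. The kinase gene Src was the highest at 59.0 in KO and 35.0 in WT (0.56), above the filter only in KO, followed by the adaptor gene Nck1 at 192 and 160 (0.24). The kinase gene Abl1 was the lowest at 311 and 355 (-0.19), followed by Kalrn, an exchange factor gene, at 55.1 and 61.2 (-0.12).

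Of 10 genes for reverse signalling and partners of ephrins, 8 passed the filter, 3 higher and 5 lower, with a median of -0.097. Ngfr, a neurotrophin receptor that acts with ephrin-A ligands, read 48.8 in KO and 33.9 in WT (0.38), above the filter only in KO, and Grip1, a PDZ scaffold of ephrin-B ligands, 87.3 and 76.5 (0.16). Pick1, another PDZ protein gene, read 56.0 and 75.1 (-0.34), and Ntrk2 72.9 and 85.1 (-0.19). For cleavage of ephrins and Ephs, 2 of 3 measured genes passed, Adam10, the protease that releases ephrin-A ligands, at 952 and 854 (0.15) and Psen2 at 50.6 in both (-0.0017). None of these 3 lists held a passing gene that was 1.5-fold apart.

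The values by gene under each setting of the processing were compared for the 9 measured genes. Efnb1, Epha3, Epha4, Epha7 and Ephb3 kept their sign under each setting that gave a value. The Efnb2 difference was 0.24 as the mean of its 4 probe sets. It was -0.012 by its median probe set, taken as the lower of the middle pair, which is the dim 1449549_at. Probe set 1419639_at itself ran from 0.52 to 0.57 and 1419638_at from 0.39 to 0.49. Epha4 was -0.20 as the mean of its probe sets and -0.11 by the median one, and 1429021_at itself ran from -0.75 to -0.51.

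**Figure D4:**
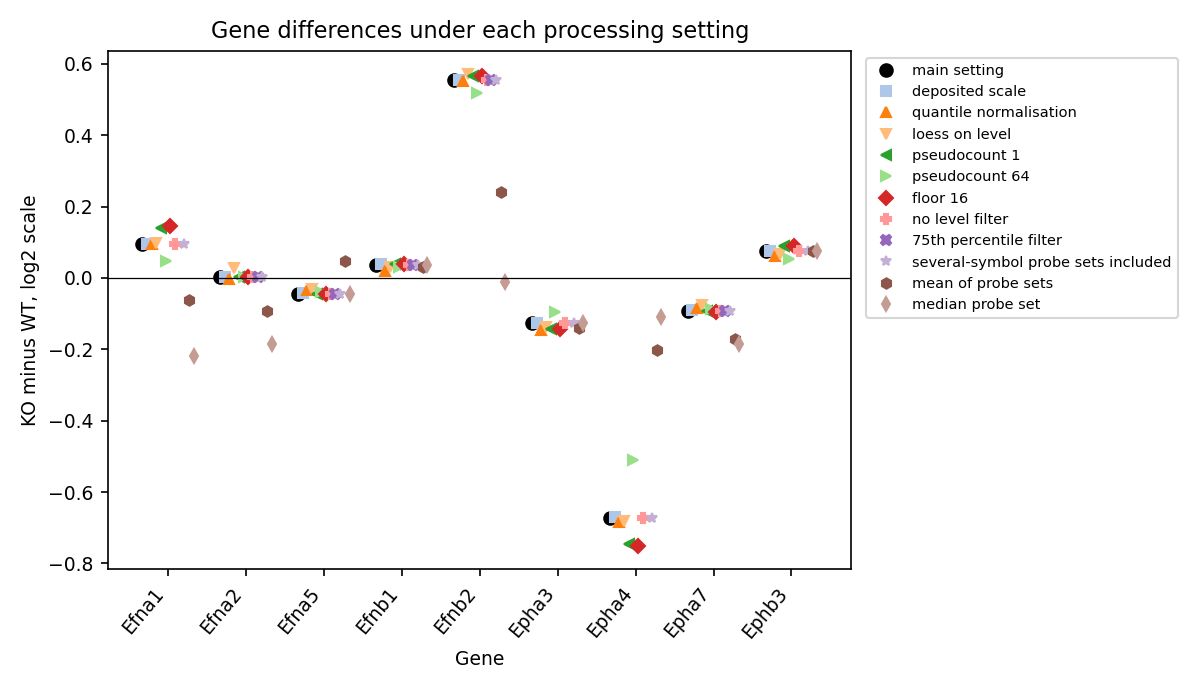
Difference KO minus WT (log2 scale) of each of the 9 measured genes under the main setting (black) and each alternative, 1 point per setting. Efnb2 and Epha4 come closest to 0 when their probe sets are averaged (0.24 and -0.20) or the median one is taken (-0.012 and -0.11). For an even number of probe sets, as in Efnb2, the median one is the lower of the middle pair. The other genes stay between -0.22 and 0.15.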

How the data were processed

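Total RNA of brain at E10.5 was made into biotinylated cRNA from 250 ng, per the labels' protocols, and hybridised to 1 Affymetrix array per group. The authors deposited linear probe set intensity values made with Affymetrix Expression Console, per the submitters' processing notes; which algorithm it ran is not given in the sources used here. Medians were 13.2 in both arrays and trimmed means 100.0, so a common scale had been set. The number of arrays limits the precision, and no detection calls were used here.

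Of 45101 probe sets, 34957 had 1 gene symbol, 920 several, 9160 none and 64 were controls; probe sets with several symbols named no gene, and none of these held a listed symbol. Arrays were scaled to 1 median and taken as log2(intensity + 16), which understates changes of dim genes. A gene was represented by its brightest probe set. The level filter was the median over named genes of the higher array. All probe sets of the listed genes, all other family members, and the 2 highest and 2 lowest passing genes of each pathway list were named. Members and lists were chosen with earlier results of these data known. The code was tested on simulated data. Python 3.11.15, numpy 2.4.6, pandas 2.3.3, statsmodels 0.14.6 and matplotlib 3.10.9 were used.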

Additional observations from a re-analysis of the deposited data

How the results depend on the processing

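No paired analysis was possible because KO and WT had 1 array each, and no replicate could be left out. Alternatives were the deposited scale, quantile normalisation, a loess on level, pseudocounts of 1 and 64, a floor of 16, no filter, a 75th percentile filter, probe sets with several symbols, the mean or median probe set of a gene, and a 1.5-fold threshold. The count of listed probe sets 2-fold apart was 0 under each setting that keeps probe sets apart, and 1 at 1.5-fold. Their median ran from -0.085 to -0.021. The median over the listed genes, -0.021 in the report, has no firm sign: it was -0.11 with the median probe set, 0.040 with the mean of probe sets and 0.0025 without a filter or with the 75th percentile filter. For a gene with an even number of probe sets, the median one was the lower of the middle pair. This rule leans towards lower values in KO. The EphA counts, added after seeing the data, depend on the filter by construction: 12 of 13 listed and 18 of all 24 EphA probe sets were lower without it, and 2 of 2 with the 75th percentile filter. Without a filter, 17671 of all 34957 named probe sets were lower. Efna2 changed sign under 3 of 11 settings, Efna1 under 2 of 10, and Efna5 and Efnb2 under 1 of 11 each. The Efnb2 change came only from the median probe set rule, which also gave part of those of Efna1 and Efna2. Probe sets below the filter read under 45.0 in both arrays, where the median over all probe sets was 13.2. Their differences are understated by the added 16, most of all at signals next to 0.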
